A study of Mus musculus with 14 samples.

Results

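The carboxylesterases described here are 10 liver genes, Ces1b, Ces1c, Ces1d, Ces1e, Ces1f, Ces1g, Ces2a, Ces2e, Ces3a and Ces3b, chosen by gene symbol from 22564 gene entries in the expression tables. All 10 were measured in the 8 expression libraries, and 73 of the 40679 m6A peaks listed for 6 immunoprecipitation (IP) libraries carry their names. The study deleted Mettl3, the catalytic subunit of the RNA m6A methyltransferase, in hepatocytes of C57BL/6 mice aged 8 weeks. Knockout mice (cKO) carry floxed Mettl3 alleles and a Cre driven by the albumin promoter. The study's methods write the WT genotype as Alb-cre Mettl3-/-, so that Cre is shared by both groups, and name WT or heterozygous littermates as controls. Isolated hepatocytes of males gave 1 input and 1 IP library per genotype (replicate 1), liver of males gave 2 of each (replicates 2 and 3), and liver of females gave 1 RNA-seq library per genotype and no IP (replicate 4). Levels are in FPKM, fragment counts scaled by transcript length and library depth, and a fold change is the difference of log2(FPKM + 1), cKO minus WT.

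Carboxylesterases are serine hydrolases that split ester, thioester and amide bonds, and most of them sit in the endoplasmic reticulum of hepatocytes. They activate or clear ester drugs and insecticides, and several also hydrolyse triacylglycerol and cholesteryl esters of the liver. Mouse has many more genes of this family than human, a product of tandem duplication. The modification m6A is written by METTL3 with its partner METTL14, in motifs that often hold GGAC, and is known to be dense around stop codons.

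The 10 genes lie in tandem clusters on chromosome 8 (mm10, coordinates of the deposited tables). The Ces1 genes are on the minus strand, from Ces1b at chr8:93056727-93080017 through Ces1c, Ces1d, Ces1e and Ces1f to Ces1g at chr8:93302369-93337308. The others are on the plus strand, Ces2a at chr8:104734003-104741634, Ces2e at chr8:104926260-104934672, Ces3a at chr8:105048599-105058414 and Ces3b at chr8:105083753-105093929. Copies of a gene family can share reads. Among the 100-base words of each reference transcript (GENCODE M21), Ces3a shares 9.09% and Ces3b 7.68% with each other, Ces2a shares 10.7% with the gene model Gm7208, and Ces1b and Ces1c share 1.29% and 1.39% with each other. Ces1d, Ces1e, Ces1f, Ces1g and Ces2e share none with a transcript of another gene. Fragments from the shared stretches cannot be assigned with certainty.

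Most of the strongest hepatocyte m6A peaks of the family lay over the last exon, and the sequences below show the coding stretch before the stop codon there, read 5′ to 3′ on the sense strand of GRCm38. Capitals mark GGAC, or in Ces1d the 4 bases at the same distance from the stop codon as in Ces1b, Ces1c and Ces1g.
Ces1b: gaagtggctttctGGACtgagctcctggc
Ces1c: gaagtggctttctGGACtgagctcctggc
Ces1d: gaagtgagtttttGGGCtgagctcagggc
Ces1e: gaagtggctttctGGACtgaacttctggc
Ces1f: gaagtgactttctGGACacagtcccttgc
Ces1g: gaagtggacttttGGACtgagctcagagc
Ces2a: aggctgcagttctGGACcaagactctgcc
Ces2e: aggctgcagttctGGACcaagactctgcc
Ces3a: cggctacagttctGGACagagacactgcc
Ces3b: cggctacagttctGGACagagacactgcc

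These windows of 29 bases lie in exon 14 of the Ces1 genes (exon 13 of Ces1c), exon 12 of the Ces2 genes and exon 13 of the Ces3 genes. The window of Ces1b is chr8:93056936-93056964, that of Ces1c chr8:93099214-93099242, that of Ces1e chr8:93201441-93201469 and that of Ces3b chr8:105093173-105093201. The first capital stands 53 to 77 bases before the end of the stop codon. Ces1b and Ces1c are identical over the window, as are Ces2a and Ces2e, and Ces3a and Ces3b. The Ces2 and Ces3 windows differ from each other at 5 of 29 bases and from that of Ces1b at 13. The word TTCTGGAC, picked after these sequences had been read, was found on the sense strand in the last 100 coding bases of 8 of the 10 genes, all but Ces1d and Ces1g, and its reverse complement in 0 of them. In the same stretch of all coding transcripts of at least 1 FPKM in hepatocytes, 40 of 9128 (0.438%) hold the word, the 8 included. GGAC alone was found there in all 10 members and in 40.1% of those transcripts. A match to these letters describes the sequence and does not show a methylated base.

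Before the levels, the labels need a caution. Mettl3 was not lower in the livers labelled cKO, and only a little lower in the hepatocytes. It stood at 8.43 and 10.6 FPKM in the male livers labelled WT and at 26.3 and 14.7 in those labelled cKO (log2 fold change 0.99, SE 0.42, adjusted p = 0.197, limma), at 3.44 and 2.91 in the hepatocytes labelled WT and cKO, and at 29.7 and 72.3 in the female livers. The floxed allele loses the second and the third exon, and FPKM sum the whole gene, so these values do not check the labels. Of the female pair, the library with WT in its title has the genotype tag Mettl3 cKO. It was treated as WT, after the title. Groups are therefore given as labelled. Whether the 2 hepatocyte labels are in order could not be settled from the files, and exchanging them would turn round each hepatocyte direction given here. Estimated depth was 1737350 to 10908995 fragments on genes per library, with 11.9% to 38.5% of FPKM from mitochondrial genes. All 11 measured hepatocyte markers were above 0 in every library. The hepatocyte pair was unlike in other cell types: 9 Kupffer cell and macrophage markers summed to 520 FPKM in the library labelled WT and 11.1 in that labelled cKO, with none at 0 in either.

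In male livers labelled WT the carboxylesterases summed to 2242 and 2538 FPKM, which is 98.9% and 99.0% of all FPKM on Ces genes. Ces3a and Ces1c were the most abundant and overlapped between the libraries. Ces1d (228 and 297 FPKM) stood just above Ces1f (175 and 226), followed by Ces3b (135 and 136), Ces2a (93.4 and 106) and Ces1g (62.1 and 65.2). Ces1e (42.0 and 57.4) and Ces2e (37.0 and 56.9) overlapped, and Ces1b (16.8 and 21.3) was lowest. In the livers labelled cKO the sums were 732 and 932 FPKM. Ces1c alone then made up 57.8% and 72.1% of the sum, against 27.0% and 30.5% in WT, while Ces3a went from 33.0% and 35.7% to 0.841% and 1.95%.

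**Figure D1:**
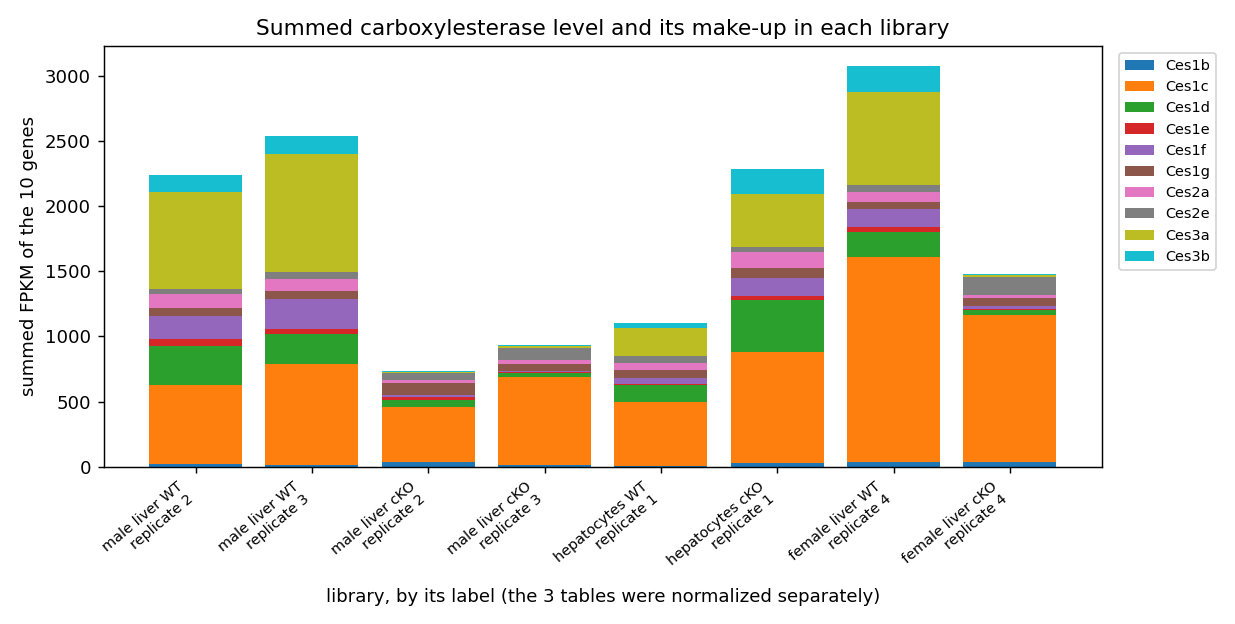
Summed FPKM of the 10 carboxylesterases (vertical axis) in each of the 8 expression libraries, by label, with each gene's share stacked in colour. Ces3a takes 33.0% and 35.7% of the sum in the male livers labelled WT and 0.841% and 1.95% in those labelled cKO, where Ces1c takes 57.8% and 72.1%.

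Of the 10 members, 5 fell in male liver labelled cKO (Ces3a, Ces3b, Ces1f, Ces1d and Ces2a) and 0 rose, with limma at an adjusted p of 0.05 over 10937 genes. Of all genes tested, 1.5% fell and 3.68% rose. The members were chosen with earlier results of these data known, so setting them beside all genes is a description and no test. Of the further Ces genes 2 were tested, Ces2c and Ces2g, and neither passed. At an unadjusted p under 0.05, 6 members were lower and 0 higher, against 559 and 2209 of all genes. The median log2 fold change of the members was -1.68, and that of all genes 0.417. In 6 members both cKO libraries lay below both WT libraries (11.7% of all genes), and in 0 both lay above (44.8%). When median-ratio scaling replaced the authors' scaling, the median of all genes went to -0.01, the calls over all genes from 164 lower and 403 higher to 292 and 167, and the same 5 members fell. The 5 calls rest on all 4 libraries: without any 1 of them, WT replicate 2, WT replicate 3, cKO replicate 2 or cKO replicate 3, 0 members and 0 genes passed, while 5 or 6 members were lower at an unadjusted p under 0.05. With no filter on low values only Ces3b passed. The series calls the livers biological replicates without naming animals, and the p-values measure the spread between these libraries.

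Ces3a and Ces3b, neighbouring genes for liver enzymes of the endoplasmic reticulum, fell furthest. Ces3a stood at 741 and 905 FPKM in the male livers labelled WT and at 6.16 and 18.2 in those labelled cKO. The groups lay far apart, and the fitted difference was 69.9-fold (log2 fold change -6.13, SE 0.50, adjusted p = 0.0029). Its size depends on the cKO libraries, with -5.42 without cKO replicate 2 and -6.84 without cKO replicate 3. Ces3b stood at 136 and 135 FPKM in WT and at 4.95 and 3.77 in cKO, again without overlap. These cKO values come from 20 and 64 estimated fragments. The difference of Ces3b was 25.6-fold (log2 -4.68, SE 0.34, adjusted p = 0.00215). Both were also far apart in female liver, with 719 FPKM labelled WT and 17.3 labelled cKO for Ces3a, and 197 and 3.13 for Ces3b. In hepatocytes the order turned round: Ces3a was at 219 FPKM in the library labelled WT and 401 in that labelled cKO, and Ces3b at 36.2 and 191.

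Among the Ces1 genes the members split. Ces1d, the triacylglycerol hydrolase that mobilises stored fat for very low density lipoprotein (VLDL) secretion, stood at 297 and 228 FPKM in male livers labelled WT and at 49.5 and 30.1 in cKO. The groups did not overlap, and Ces1d fell by 2.72 on the log2 scale (SE 0.37, adjusted p = 0.0165, limma). Ces1f, a close relative that also hydrolyses lipid esters, stood at 175 and 226 FPKM in WT and at 12.2 and 10.3 in cKO. It fell 16.3-fold (log2 -4.03, SE 0.34, adjusted p = 0.00352). Ces1e, known as egasyn, the protein that holds beta-glucuronidase in the endoplasmic reticulum, stood at 57.4 and 42.0 FPKM in WT and at 26.2 and 8.43 in cKO. The groups did not overlap, the cKO libraries lay far from each other, and the test was missed (log2 -1.64, SE 0.54, adjusted p = 0.123).

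The other 3 Ces1 genes overlapped between genotypes in male liver. Ces1c, which encodes the esterase secreted into mouse plasma, was at 606 and 773 FPKM in WT and at 424 and 672 in cKO (log2 -0.36, SE 0.35, adjusted p = 0.567). Ces1g, an enzyme that limits hepatic lipid storage and VLDL output in mice, was at 65.2 and 62.1 FPKM in WT and at 90.9 and 57.0 in cKO (log2 0.18, SE 0.36, adjusted p = 0.799). Ces1b was at 21.3 and 16.8 FPKM in WT and at 36.8 and 13.8 in cKO (log2 0.25, SE 0.50, adjusted p = 0.796). For Ces1b and Ces1g, cKO replicate 2 lay above both WT libraries and cKO replicate 3 below both. Their signs turned negative under median-ratio scaling (-0.25 and -0.34) and without cKO replicate 2 (-0.43 and -0.16).

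Of the Ces2 genes, 1 passed the test. Ces2a, an enzyme that hydrolyses neutral lipids and ester drugs, stood at 106 and 93.4 FPKM in WT and at 28.8 and 30.7 in cKO, without overlap. The cKO values come from 138 and 400 estimated fragments, in libraries of 3314507 and 5875098, so the replicates were closer in FPKM than in fragments. Ces2a fell by 1.71 on the log2 scale (SE 0.32, adjusted p = 0.035, limma). Ces2e, a hydrolase of pyrethroid insecticides, stood at 37.0 and 56.9 FPKM in WT and at 53.2 and 87.5 in cKO. The groups overlapped and the difference was not past the test (log2 0.56, SE 0.40, adjusted p = 0.423).

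**Figure D2:**
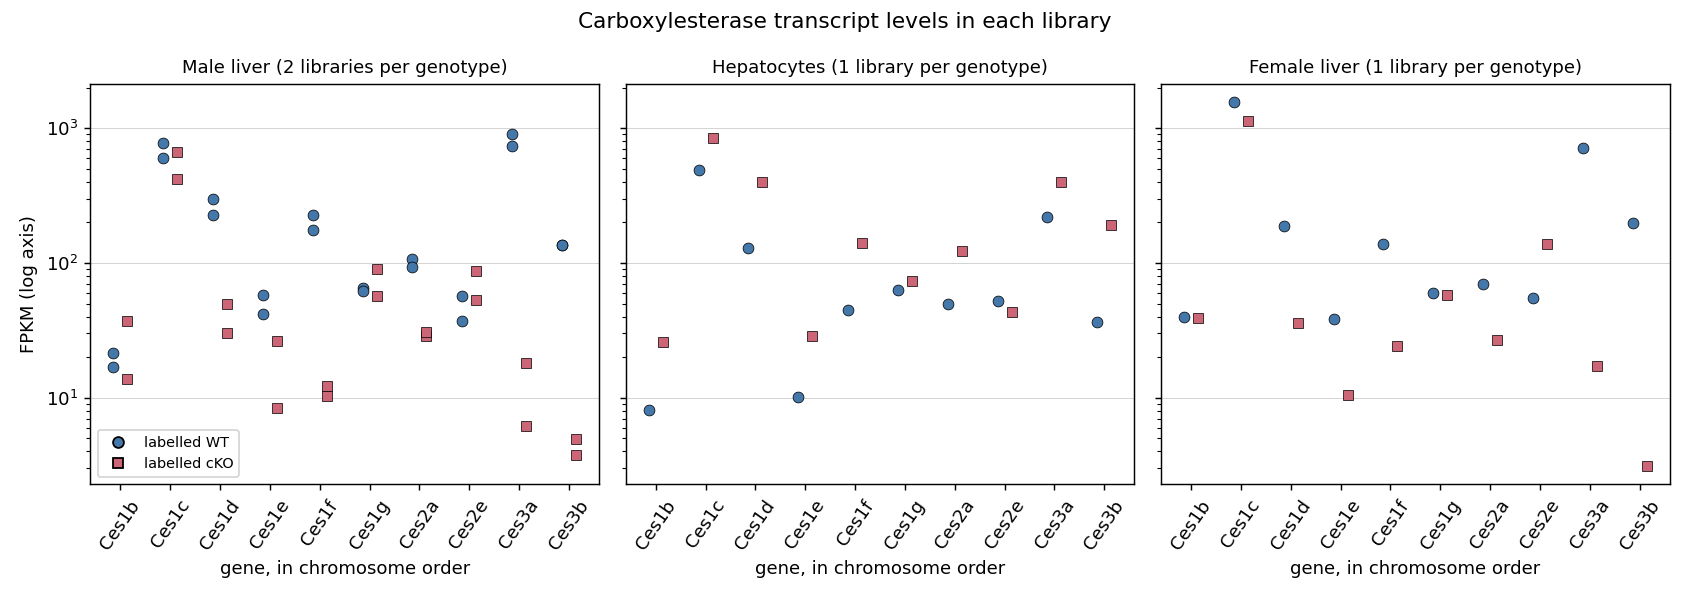
FPKM of each carboxylesterase on a log axis, genes in chromosome order, with 1 point per library, circles for libraries labelled WT and squares for cKO, in male liver, hepatocytes and female liver. In male liver the squares of Ces1d, Ces1e, Ces1f, Ces2a, Ces3a and Ces3b all lie below the circles, and in hepatocytes they lie above for 9 of the 10 genes.

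Female liver, with 1 library per genotype and no test, gave values on the same side for the 6 members whose groups did not overlap in male liver. Ces1d was at 189 FPKM in the library labelled WT and 35.9 in that labelled cKO, Ces1f at 139 and 24.1, Ces1e at 38.7 and 10.4, and Ces2a at 70.0 and 27.0. With Ces3a and Ces3b, 6 members were at least 2-fold lower (11.3% of 11046 genes). Ces2e was at 54.7 and 138 FPKM, at least 2-fold higher (36.8% of genes). Ces1c was at 1570 and 1126 FPKM, the highest value of any member in both female libraries. Ces1b (39.8 and 39.4) and Ces1g (60.1 and 57.5) were nearly level. In all 9 of 10 members were lower, against 31.0% of genes. The median log2 fold change was -1.57, against 0.608 for all genes, and went to -2.25 under median-ratio scaling. The sum of the members was 3077 FPKM in the library labelled WT and 1478 in that labelled cKO. In the same libraries the Kupffer cell markers summed to 334 and 1056 FPKM, the cholangiocyte markers to 44.2 and 261, the stellate markers to 264 and 591, the endothelial markers to 168 and 318, and the hepatocyte markers to 34225 and 34885. Of these, 1 cholangiocyte marker was at 0 in each library. Single genes weigh on these sums. Stab1 was at 40.8 and 199 FPKM in the endothelial list, where 6 of 10 markers were lower and 4 higher. Ecm1 was at 130 and 477 in the stellate list, where 2 of 10 were lower and 8 higher. Of the 11 hepatocyte markers 7 were lower, 5 of them at least 2-fold, and 4 higher, 1 of them at least 2-fold. Their median log2 fold change was -0.997, against 0.608 for all genes. The part of these cell types in the female values was not tested.

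In isolated hepatocytes 9 of 10 members were higher in the library labelled cKO, 6 of them at least 2-fold, where 67.6% of 9596 genes were higher and 23.6% at least 2-fold higher. Ces1d was at 129 and 402 FPKM, Ces1f at 44.7 and 141, Ces1e at 10.2 and 28.6, Ces1b at 8.16 and 26.1, and Ces2a at 50.02 and 123. Ces1c (490 and 852 FPKM) and Ces1g (63.4 and 73.3) differed by less than 2-fold, and Ces2e (51.9 and 43.6) was the only member that was lower, by less than 2-fold (13.2% of genes were lower by more). The median log2 fold change was 1.34, against 0.408 for all genes. The members summed to 1103 FPKM in the library labelled WT and 2282 in that labelled cKO. Total FPKM also differed, at 190480 and 339949, so the members' share of it was 0.579% and 0.671%. Members and the hepatocyte markers moved together here: the 11 markers summed to 5938 FPKM in the library labelled WT and 14160 in that labelled cKO, all 11 higher, while the 9 Kupffer cell, 10 endothelial and 10 stellate markers were lower in 9, 9 and 10 genes. The part of cell composition in these values was not tested. Fewer cells of a type and less RNA per cell cannot be told apart in bulk libraries.

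In male liver the marker lists moved otherwise. The 11 hepatocyte markers summed to 15687 and 20872 FPKM in WT and to 22090 and 23764 in cKO, but more of them were lower than higher. In 6 both cKO libraries lay below both WT libraries and in 4 above, the median log2 fold change was -0.43, and 1 passed the test as lower and 0 as higher. The 8 cholangiocyte markers summed to 64.9 and 26.4 FPKM in WT and 247 and 169 in cKO, with 3 and 2 of them at 0 in WT and 1 and 0 in cKO. The 9 Kupffer cell markers summed to 131 and 143 in WT and 310 and 467 in cKO, where 1 rose and none was at 0. The 10 stellate markers summed to 144 and 146 FPKM in WT and to 366 and 385 in cKO, where 1 rose. The 10 endothelial markers summed to 143 and 109 in WT and 186 and 169 in cKO, with none at 0 in either list. Among them Stab1 was at 76.7 FPKM in cKO replicate 2 and 10.4 in cKO replicate 3, from 211 and 500 estimated fragments. In 3 endothelial markers both cKO libraries lay above both WT libraries, and in 1 below. Mitochondrial genes took 17.6% and 15.5% of FPKM in WT and 28.0% and 21.9% in cKO. The part of these cells and of the mitochondrial share in the fall of the carboxylesterases was not tested.

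The hepatocyte and the male liver differences were set against each other as an interaction in limma over all 8 libraries. Its p-values hold only if the lone hepatocyte libraries, which also differ in Kupffer cell markers (520 and 11.1 FPKM), vary like the replicated livers, and 1 library per genotype cannot check this. Under that assumption the difference was past the threshold above 0 for 3 members, against 0.61% of 11145 genes. These were Ces3b (difference of log2 fold changes 7.05, SE 0.55, adjusted p = 0.0152), Ces1f (5.67, SE 0.55, adjusted p = 0.0248) and Ces3a (7.00, SE 0.89, adjusted p = 0.0453). Ces1d (4.35, adjusted p = 0.0532) and Ces2a (2.99, adjusted p = 0.0586) missed it narrowly, and with a pseudocount of 0.1 FPKM 2 members passed. For Ces1g the difference was 0.03 (SE 0.61). All 10 members had opposite signs in hepatocytes and female liver, where 50.9% of 8999 genes did. That difference was not tested.

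**Figure D3:**
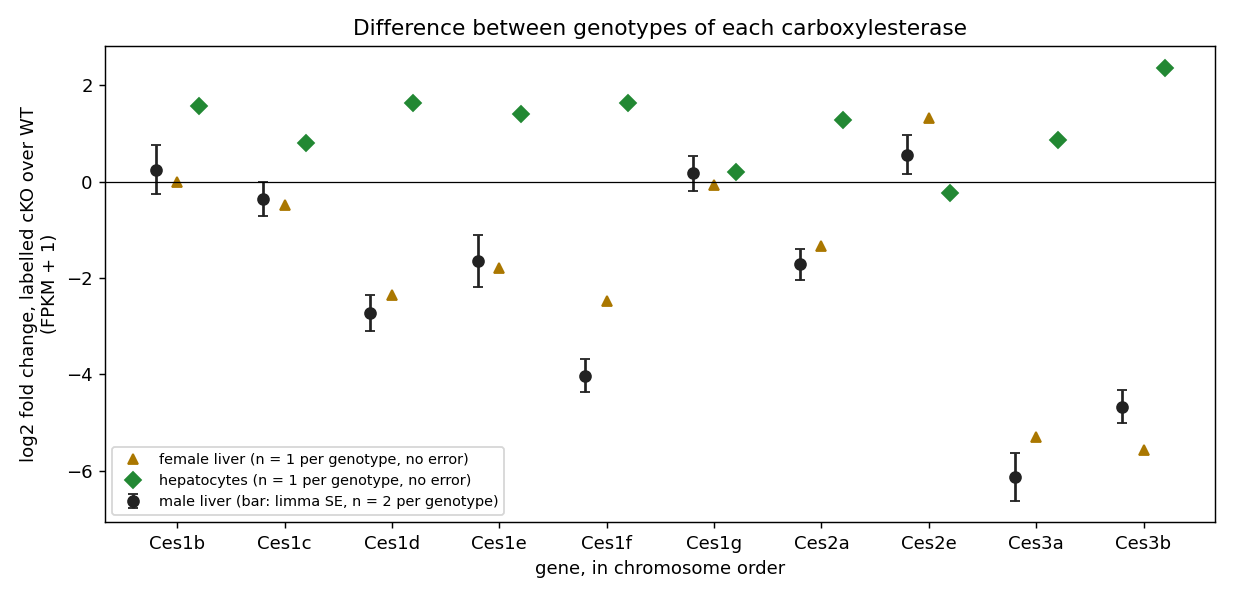
Log2 fold change of FPKM + 1, libraries labelled cKO over WT (vertical axis), for each carboxylesterase in chromosome order. Circles with limma SE bars are male liver (n = 2 per genotype), triangles female liver and diamonds hepatocytes (n = 1 per genotype, no error). Ces3a, Ces3b and Ces1f lie at -6.13, -4.68 and -4.03 in male liver and above 0 in hepatocytes.

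The other genes of the family were mostly near the floor. Of 10 further Ces genes in the tables only Ces2c and Ces2g reached a mean of 1 FPKM in male liver, and neither passed the test. Ces2g was at 16.8 and 15.1 FPKM in WT and at 32.8 and 32.6 in cKO (log2 0.99, SE 0.34, adjusted p = 0.132), and at 13.8 and 32.9 in female liver labelled WT and cKO. Those values do not overlap and lie on the side of Ces2e. Ces2c was at 5.51 and 9.26 FPKM in WT and at 6.74 and 11.1 in cKO (adjusted p = 0.771). In female liver it was listed at 3.25 and 22.5 FPKM, from 91 and 115 estimated fragments in libraries of similar depth. The fragments thus differed far less than the FPKM. Ces1a, Ces2b, Ces2d-ps, Ces2h and Ces4a stayed between 0 and 1.48 FPKM in every library, and Ces1h, Ces2f and Ces5a are listed at 0 in all 8.

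Related enzymes and regulators were measured in the same libraries. Of 19 other liver esterases and lipases tested, 0 passed in either direction in male liver (limma), where 6 had both cKO libraries below both WT libraries and 6 above. The largest differences in this list were in Lpl, lipoprotein lipase (4.15 and 11.0 FPKM in WT, 26.4 and 36.5 in cKO, log2 2.03, adjusted p = 0.0628), and Aadac, the microsomal arylacetamide deacetylase (163 and 315 in WT, 50.8 and 86.7 in cKO, log2 -1.75, adjusted p = 0.0702). Of 10 genes of VLDL assembly, 0 passed. In 5 of them both cKO libraries lay below both WT libraries (11.7% of all genes), and in 0 above (44.8%). All 10 were higher in hepatocytes labelled cKO, and in female liver 5 were lower and 5 higher. In male liver the largest differences of this list were in Cideb and Sar1b (limma). Cideb is a lipid droplet protein that lipidates VLDL (log2 -1.03, adjusted p = 0.134). Sar1b is a GTPase of the vesicles that carry lipoproteins out of the endoplasmic reticulum (log2 -1.02, adjusted p = 0.12). Of 13 receptors and factors that govern xenobiotic and lipid genes, 1 rose and 0 fell past the threshold. In 6 of the 13 both cKO libraries lay below both WT libraries, and in 3 above. Their median log2 fold change was -1.05, against 0.417 for all genes. In female liver 11 were lower (31.0% of genes). In hepatocytes 12 were higher (67.6% of genes), 11 of them at least 2-fold (23.6%). Nfe2l2, which encodes the redox factor NRF2, was at 23.8 and 28.6 FPKM in WT and at 85.6 and 90.7 in cKO (log2 1.72, SE 0.33, adjusted p = 0.0358). Ppara, the fatty acid receptor of the liver, was at 35.9 and 27.3 FPKM in WT and at 11.8 and 8.05 in cKO, without overlap and short of the threshold (log2 -1.59, adjusted p = 0.0612).

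The m6A peaks were called by the authors in each IP library against its own input, so a peak depends on both. In hepatocytes, 47 peaks in all 10 members were listed for the IP labelled WT, and 11 peaks in 4 members (Ces1c, Ces1e, Ces1g and Ces2e) for the IP labelled cKO. Among genes of at least 10 FPKM in hepatocytes, 79.4% had a peak in the first and 60.4% in the second. The WT peaks covered Ces1g 8 times, Ces1c 7 times, Ces1f and Ces2a 5 times each, Ces1d, Ces1e, Ces3a and Ces3b 4 times each, and Ces1b and Ces2e 3 times each. Their centres fell in 46 of the 133 exons of the reference transcripts, with 39 centres in coding sequence and 8 in the 3′ untranslated region. The fold enrichment of IP over input ranged from 2.0 to 80.9, with a median of 12.5, below the 28.5 of all 17175 peaks of that library. The 6 members without a peak in the IP labelled cKO ranged in its input from 26.1 FPKM (Ces1b, the lowest of all members) to 402 (Ces1d). The 4 with a peak ranged from 28.6 (Ces1e) to 852 (Ces1c).

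Of the members, 9 had a WT hepatocyte peak in the last exon, all but Ces2a, and in 7 the peak of highest enrichment lay there. Of the 6805 genes with a placed peak, 63.0% had one in the last exon and 45.6% had the highest there. The 10 last-exon peaks of the members had a median fold enrichment of 35.9, the 37 others one of 8.82. The last exon of Ces1e carried the highest value of the family, 80.9, followed by Ces1g at 60.8, Ces1c at 58.9 and Ces1b at 57.8. Ces3b reached 44.2, Ces1f 27.6 and Ces3a 11.3. Ces2e had 2 peaks in this exon, at 12.5 and 21.8. Each of these except the Ces2e peak at 21.8 spans the printed GGAC of its gene. The printed windows come from the same exon, and most of these peaks run to the annotated end of their gene. The overlap therefore does not place the signal at the GGAC.

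Ces1d and Ces2a stood apart. In Ces1d, whose printed window holds no GGAC, the last-exon peak had a fold enrichment of 18.2, and the peak of exon 7 reached 44.7. Another GGAC of Ces1d in the same exon, 85 bases before the end of the stop codon, lies within its last-exon peak. Ces2a, identical to Ces2e over the printed window, had no peak in its last exon and its highest in exon 3, at 16.1. In Ces1f the peak of exon 1 (28.3) was about level with that of the last exon.

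**Figure D4:**
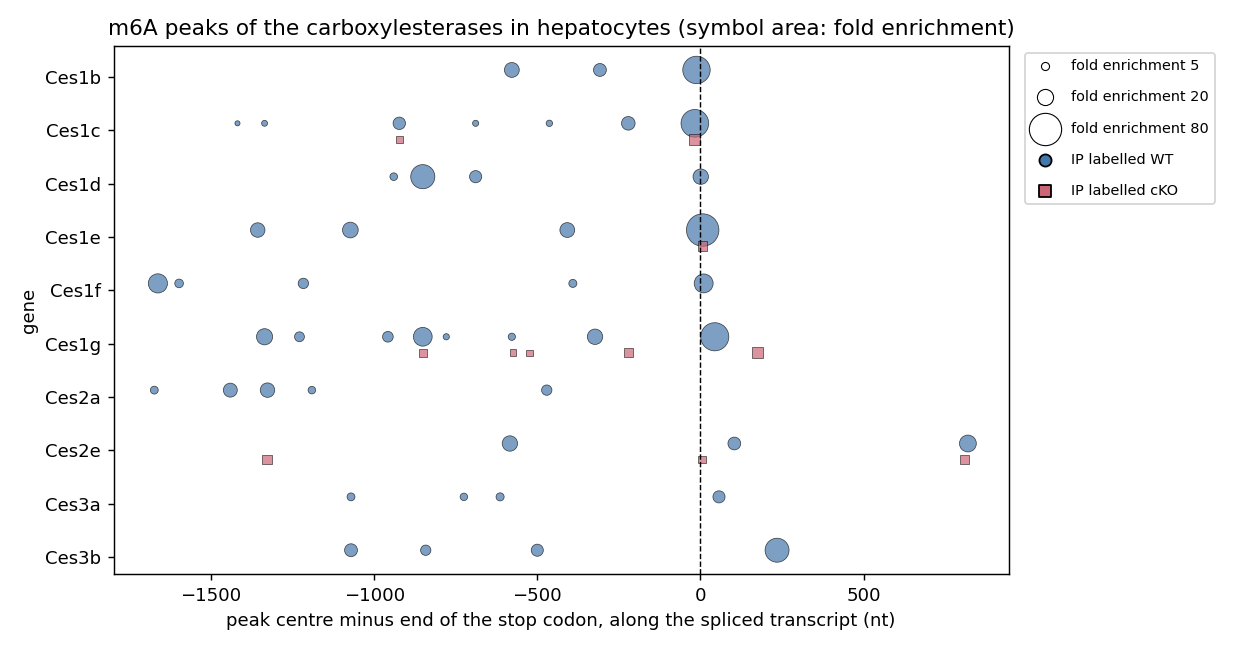
Centres of the listed hepatocyte m6A peaks of each carboxylesterase, as nucleotides from the end of the stop codon along the spliced transcript (horizontal axis, 0 at the dashed line), for the IP labelled WT (circles, 47 peaks) and cKO (squares, 11 peaks). Symbol area is the fold enrichment, and the biggest circles, of Ces1e, Ces1g, Ces1c and Ces1b (57.8 to 80.9), have their centres near the stop codon. Many listed peaks cover a whole exon, so a peak's centre need not be where its signal is highest.

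Of the 47 WT hepatocyte peaks, 39 (83.0%) had no overlapping peak in the IP labelled cKO, against 64.5% of all WT peaks. Of the 11 cKO peaks 8 overlapped a WT peak, against 35.3% of all. All 8 overlapping pairs had the higher fold enrichment in WT, as did 75.0% of 6204 overlapping pairs over all genes. The median ratio was 4.33 for the members and 2.36 for all pairs. At the last exon the values labelled WT and cKO were 80.9 and 6.78 for Ces1e, 58.9 and 8.85 for Ces1c, and 60.8 and 9.21 for Ces1g. The Ces2e pairs were 12.5 against 4.43 and 21.8 against 6.03. The input levels moved too, from 10.2 to 28.6 FPKM for Ces1e and from 490 to 852 for Ces1c, but little for Ces1g, at 63.4 and 73.3. The narrowest pair was exon 10 of Ces1g, with 4.07 and 3.31. The 2 lists differ in quality. The authors' false discovery rate was 1.11% to 6.06% for member peaks of the IP labelled WT and 10.5% to 17.9% for those labelled cKO. The median fold enrichment of all listed peaks was 28.5 and 14.95. What this adds to the missing peaks and to the ratios was not tested. With 1 library per genotype these ratios have no replicate check, and the number of reads behind each IP is unknown.

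GGAC was no more frequent in the member peaks than elsewhere. On the sense strand, in windows reaching 50 bases to either side of the peak centres, it was present in 18 of the 47 WT hepatocyte peaks (38.3%), against 43.6% of 15046 placed peaks in that library. The reverse complement GTCC was present in 16 (34.0%), against 24.0%. Many listed peaks span exactly 1 exon, so that a peak's centre need not be where its signal is highest. Over the whole peak, 24 of 47 (51.1%) hold a GGAC, against 62.5% of the placed peaks of that library. The member peaks had a median length of 134 bases, all 17175 peaks one of 209. The GGAC content of the transcripts ranged from 4.07 per kilobase in Ces1b to 9.18 in Ces2a, with a median of 4.23 over 9128 coding transcripts.

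In male liver few peaks were listed, and at far higher false discovery rates. The authors' false discovery rate was 52.6% for both member peaks of WT replicate 2 and 100% for all 13 in the libraries labelled cKO. The authors' peak score, which rises as the p-value falls, was not low throughout. It was 3100 for both peaks of WT replicate 2, as for 8 member peaks of the hepatocyte IP labelled WT. Peaks of Ces1c, Ces2a and Ces3a in cKO replicate 2 also had 3100, and the lowest score there was 9.07. In cKO replicate 3 the scores ran from 4.92 to 340. WT replicate 2 had peaks in 2 members (Ces1c and Ces1f), WT replicate 3 in 0, cKO replicate 2 in 4 (Ces1c, Ces2a, Ces3a and Ces3b) and cKO replicate 3 in 3 (Ces1c, Ces1e and Ces3b). The share of genes of at least 1 FPKM with a peak was 14.0%, 5.42%, 7.87% and 5.7% in these libraries. The only liver peak of a member found in more than 1 liver library was that over exon 11 of Ces1c, with a fold enrichment of 104 in WT replicate 2 and 60.5 in cKO replicate 2. The last exon was covered in Ces1f in WT replicate 2 (32.3), in Ces2a (468), Ces3a (60.0) and Ces3b (4.52) in cKO replicate 2, and in Ces1c in cKO replicate 3 (3.72). In cKO replicate 2 the inputs of Ces2a, Ces3a and Ces3b stood at 28.8, 6.16 and 4.95 FPKM. No order between genotypes was read from these lists.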

How the data were processed

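The authors trimmed reads with cutadapt 1.9.3, aligned them to mm10 with HISAT2 2.0.4 and deposited FPKM from Cufflinks and Cuffdiff in 3 tables, normalized separately. The deposited count-like signal columns, whole multiples of 1 step for 91.2% to 94.8% of low values within 0.02 steps, gave the estimated depths and 1 alternative. The deposited peak lists hold, per IP library, the authors' MACS fold enrichment (a ratio of IP over input), score (10 times the negative log10 of p) and false discovery rate in percent. For IP the labels give an antibody of Synaptic Systems with NEBNext Ultra, and the methods the GenSeq kit with NEBNext Ultra II Directional.

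Male liver was tested with limma 3.58.1 (R 4.3.3, trended variance) on log2 of FPKM plus 1, where the mean over the 4 libraries was 1 FPKM or more, with Benjamini-Hochberg adjustment over all of them and a threshold of 0.05. The hepatocyte and female pairs have no replicate and no p of their own. Tests stay inside 1 table except the interaction, whose contrasts are formed within tables. Alternatives were another pseudocount, no filter, median-ratio scaling, the signal columns, all 8 libraries, a replicate block, each library left out and stricter peak scores. Peaks were placed by their centre on the longest coding transcript of each gene with Python 3.11.15 and pysam 0.24.0. An overlap is 1 shared bp. The scripts were tested on simulated data. There the male liver test called 16% of 100 genes changed 4-fold and 75% of 100 changed 16-fold, and 6 unchanged genes. A gene short of the threshold is therefore not shown to be unchanged. The members and gene lists were chosen with earlier results of these data known. The text names all members, the other Ces genes, Mettl3 and, of 3 related lists, the genes past the threshold and the 2 with the largest change.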

Additional observations from a re-analysis of the deposited data

Results flagged for a closer look

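For 3 members the interaction in limma was past the threshold, on the unchecked assumption that the lone hepatocyte libraries vary like the replicated livers: the hepatocyte minus male liver difference of log2 fold changes was 5.67 for Ces1f, 7.00 for Ces3a and 7.05 for Ces3b, each lower in both male livers labelled cKO and higher in the 1 hepatocyte library labelled cKO. All 10 members had opposite signs in hepatocytes and female liver, where 50.9% of 8999 genes did. That difference was not tested, and Ces1b (-0.01) and Ces1g (-0.06) were nearly level in female liver.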

How the results depend on the processing

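The count of members lower in male liver was 5 with a pseudocount of 0.1 FPKM, with median-ratio scaling and with all 8 libraries. It was 6 with the signal columns, which added Ces1e (adjusted p = 0.0327). With no filter it was 1 (Ces3b, adjusted p = 0.0365), where 14975 genes were tested, and all genes gave 9 lower and 2 higher calls against 164 and 403. Leaving out each library gave 0 to 0 members and 0 genes, with adjusted p of the 5 members from 0.118 to 0.394 and 1 residual degree of freedom. The range of the median was -2.04 to -1.32, that of Ces1b -0.43 to 0.92 and that of Ces1g -0.16 to 0.51. Median-ratio scaling moved the median to -2.18 in male and -2.25 in female liver and gave -0.25 for Ces1b and -0.34 for Ces1g. With a replicate block the count was 6, with Ces1e (adjusted p = 0.0379), and all genes gave 286 lower and 788 higher calls. The numbers name 2 pairs, whose deviations correlate across genes at 0.126, and no label says that a number marks shared animals. The signal columns gave 349 lower and 999 higher calls. Peak counts changed by no more than 5 peaks and 1 member under the stricter scores and the stricter overlap. Genes near 1 FPKM rest on few fragments.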
